A study of Mus musculus with 10 samples.

Results

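Potassium channel genes were examined in mouse hippocampal CA3, the field whose pyramidal neurons receive mossy fibre input. They were taken as the rows of the deposited count tables whose Ensembl identifier belongs to a protein-coding GRCm38 gene with a symbol beginning with Kcn. There were 93 such genes among the 18453 rows of each table, and 79 of them had enough counts to be tested. Kcnj1 was not analysed here. The 10 libraries came from CA3 tissue of C57BL/6J mice labelled male, given adeno-associated virus by stereotaxic infusion on both sides. In 5 libraries the virus carried an shRNA against Mef2c, a transcription factor of neurons, and in the other 5 a scrambled shRNA, so both groups had surgery and virus. The protocol text speaks of mice of either sex, and neither the viral promoter, the age of the mice nor the time after infusion is stated in the labels. Whether each library is a different animal is not stated either, so p-values reflect only how far these samples spread, which may be technical.

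Potassium channels let potassium leave or enter the cell and so set the resting potential, the shape of the action potential and the firing rate. Voltage-gated (Kv) channels open on depolarization, inward rectifiers (Kir) and tandem-pore (K2P) channels act near rest, and calcium-activated channels couple calcium entry to repolarization. Pore subunits assemble with auxiliary subunits such as Kv beta proteins, KChIPs and KCNE proteins, and the silent Kv subunits form channels only together with Kv2 subunits.

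Mef2c, the targeted gene, is the check of the labels. It stood at 166, 198, 176, 312 and 175 CPM (counts scaled to the library size) in scramble libraries 1 to 5, against 111, 131, 121, 163 and 286 CPM under the knockdown shRNA. The groups overlapped through the library labelled knockdown 5, and the difference did not pass (log2 fold change -0.34, SE 0.30, edgeR quasi-likelihood adjusted p = 0.489; exact two-sided permutation p = 0.246 over 252 assignments). Knockdown library 5 and scramble library 4, which had the highest Mef2c levels, also had the highest sums of 6 cortical markers (362 and 284 CPM). Without both the log2 fold change was -0.446 (edgeR adjusted p = 0.0274). With a cortical marker score as covariate it was -0.346 (edgeR adjusted p = 0.00769). Both settings were chosen with earlier results of these data known. Library totals ran from 14701928 to 17798090 counts, and the knockdown totals (from 15669620) all exceeded the scramble totals (up to 15637076). Defining markers of neurons (Rbfox3, Syt1, Snap25, Stmn2) and of CA3 (Grik4, Bok, Iyd, Coch, Cdh24) were present in every library. Their summed levels were 3502 to 3775 and 167 to 198 CPM in the scramble libraries and 3369 to 4132 and 164 to 232 CPM in the knockdown libraries. Markers of CA1, CA2, dentate granule cells, interneurons, glia and vessels were also present in every library, so the samples were mixed tissue, in which fewer cells of a type and less RNA per cell cannot be told apart.

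The sequences upstream of 3 members with large falls are shown first, since the text returns to these genes; they were chosen after their values were seen. They are the parts of RefSeq promoter windows (GRCm38.p6) before the RefSeq start, given 5′ to 3′ on the strand of the gene. Stretches that reached into the annotated gene were cut where it begins. That of Kcna3 ends before its gene, which begins at 107036169. Capitals mark GGGCGG or its reverse complement, the core of a GC box. The stretch of Kcng3 lies at chr17:83631896-83632145 (minus strand), that of Kcna3 at chr3:107035912-107036161 (plus strand) and that of Kcnj6 at chr16:94997702-94997946 (minus strand).
Kcng3: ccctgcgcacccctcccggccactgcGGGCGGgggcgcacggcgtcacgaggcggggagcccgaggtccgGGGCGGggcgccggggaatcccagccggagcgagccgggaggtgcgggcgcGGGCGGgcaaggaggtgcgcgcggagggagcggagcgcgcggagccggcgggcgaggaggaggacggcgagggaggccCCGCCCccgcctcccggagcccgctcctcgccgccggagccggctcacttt
Kcna3: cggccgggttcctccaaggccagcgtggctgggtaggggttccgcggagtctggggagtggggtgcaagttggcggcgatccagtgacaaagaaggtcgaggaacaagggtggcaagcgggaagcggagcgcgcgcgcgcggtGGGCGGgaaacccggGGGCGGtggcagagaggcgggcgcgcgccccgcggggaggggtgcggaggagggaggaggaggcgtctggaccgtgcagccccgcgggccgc
Kcnj6: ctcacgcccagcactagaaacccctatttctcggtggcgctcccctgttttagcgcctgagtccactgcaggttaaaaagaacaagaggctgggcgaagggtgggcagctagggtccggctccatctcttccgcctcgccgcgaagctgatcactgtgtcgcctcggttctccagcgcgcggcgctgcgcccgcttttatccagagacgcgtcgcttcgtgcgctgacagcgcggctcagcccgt
The Kcng3 stretch was 82.4% G and C with 4 GC-box cores, that of Kcna3 was 74.4% with 2, and that of Kcnj6 was 63.3% with 0. Promoter windows were found for 68 of the 93 members (93 windows, several genes having more than 1 start); Kcna1 had none. The GGGCGG core, on either strand, stood in 48.4% of the member windows and in 35.7% of the 32851 windows of all genes. The binding motif of MEF2 proteins, searched on both strands, stood in 2 of the 93 member windows (2.15%), those of Kcnj16 and Kcnj9, and in 3.19% of all windows. It stood in 0 of the 11 windows found for 9 of the 13 members that fell. These matches describe letters in these short windows, not sites.

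Before any comparison, the levels showed which channels these samples expressed. Compared per length, as CPM per kb of exon, the highest was Kcnab2, a Kv beta subunit that binds Kv1 channels, with 145 ± 8.83 (SD, n = 5) in the scramble libraries. Kcnip2, a KChIP that binds Kv4 channels, followed with 53.6 ± 4.44, and Kcnj4, an inward rectifier, stood at 41.7 ± 5.09. Kcnab2 stood apart from both by more than the spread. Leading genes of other subfamilies were Kcnd2 for Kv4 (31.3 ± 2.57), Kcnk1 for K2P (30.8 ± 3.65), Kcnh3 for the EAG channels (24.1 ± 2.96), Kcna1 for Kv1 (22.0 ± 0.727), Kcnma1 for BK (16.8 ± 1.31), Kcnf1 for the silent Kv subunits (14.3 ± 1.36), Kcnt1 for the sodium-activated channels (9.49 ± 0.789) and Kcnn2 for SK (7.13 ± 0.373). Summed per length, the 40 voltage-gated genes made up 44.2% of all Kcn transcripts in the scramble libraries and 40.1% in the knockdown libraries, and the 13 auxiliary genes 27.4% and 31.2%. This shift was not tested. The tested voltage-gated genes had longer transcripts (median 4.79 kb) than the auxiliary ones (2.66 kb), and fold changes followed transcript length, as given below. The 14 members that were not tested reached at most 1.08 CPM in any library, among them Kcnq1, Kcnj5, Kcnh8 and Kcna7.

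**Figure D1:**
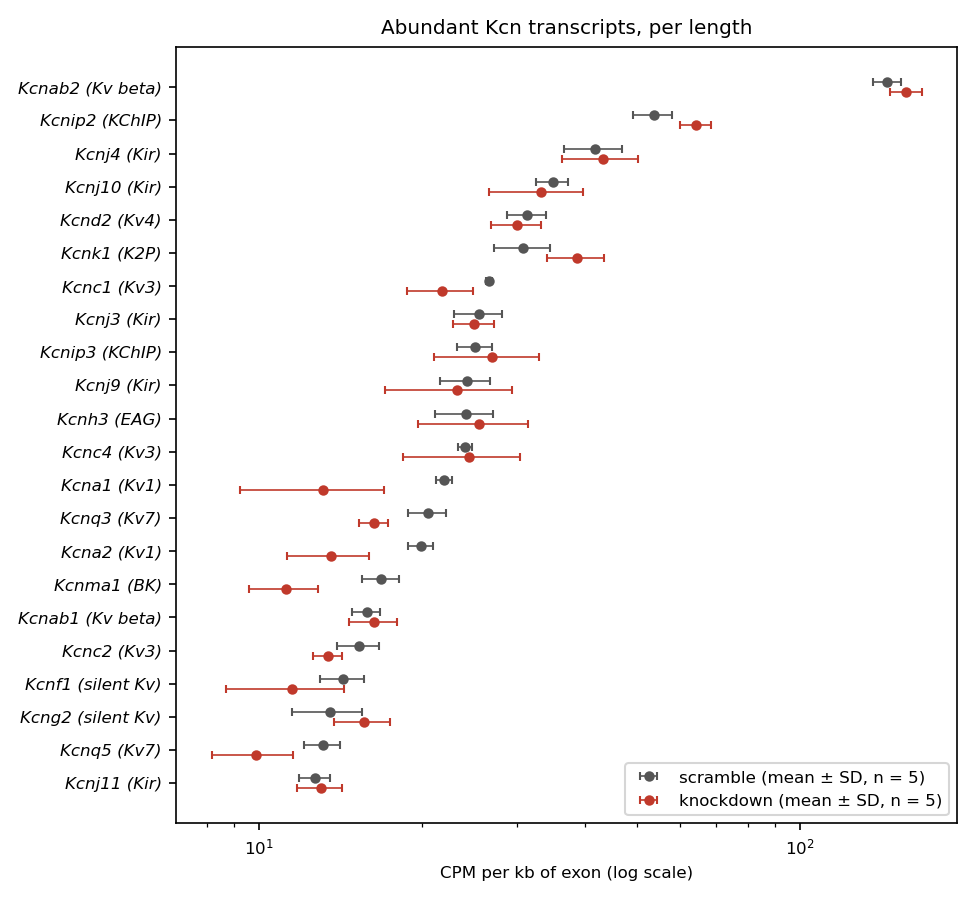
Level of 22 abundant members in CPM per kb of exon (log axis), as mean ± SD of 5 libraries per group, with the subfamily in brackets. Kcnab2 lies far to the right of the rest at 145, and the knockdown points of Kcna1, Kcna2, Kcnma1 and Kcnq3 lie to the left of the scramble points.

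Among the 79 members tested, 13 fell and 2 rose in the knockdown libraries (edgeR quasi-likelihood adjusted p under 0.05). That is 16.5% lower and 2.53% higher, where 7.61% of all 14393 genes tested were called lower and 4.66% higher, 12.3% in either direction. Among the genes that fell were Kcna1, Kcna2, Kcna3, Kcnc1, Kcnd3, Kcng3, Kcnh5, Kcnq3 and Kcnq5 of the voltage-gated class, the BK channel Kcnma1, the inward rectifier Kcnj6 and the tandem-pore channel Kcnk9. Those that rose were Kcnip2 and Kcnk1. The median log2 fold change was -0.075 over the members and 0.016 over all genes tested. In 10 members, 12.7%, the 5 knockdown libraries lay wholly outside the 5 scramble libraries, where 9.34% of all genes did, and all 10 were among the called ones. By class, 10 of 35 voltage-gated genes fell (28.6%, median -0.24), 1 of 11 calcium- and sodium-activated, 1 of 12 inward rectifier, 1 of 10 tandem-pore and 0 of 11 auxiliary genes; differences between classes or subfamilies were not tested.

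The calls depended on which libraries and which corrections were used. Fold changes over all genes followed transcript length, and the same held among the members: across the 79 genes, which are not independent replicates, the Spearman correlation of log2 fold change with length was -0.479. Of the 7 members with transcripts of at least 10 kb, a limit set after the values were seen, 5 fell (71.4%), and of all genes of that length 60.4% fell. Of the 72 shorter members 8 fell (11.1%), where 6.12% of all shorter genes did. With a correction of each library for transcript length and GC content, 3 members remained lower (3.80%, against 0.959% of all genes) and 0 higher (0.695% of all genes). These were Kcng3, Kcna3 and Kcna1, and in this edgeR fit 8 members were lower and 4 higher at an unadjusted p under 0.05 (10.1% and 5.06%, against 7.42% and 10.1% of all genes). The correlation of the corrected log2 fold changes with length was -0.00142. By class, the corrected fit called 3 of 35 voltage-gated genes lower (8.57%) and 0 in the other classes. The corrected medians lay closer together than the uncorrected ones. They were -0.085 for voltage-gated, -0.08 for calcium- and sodium-activated, -0.072 for inward rectifier, -0.024 for tandem-pore and 0.048 for auxiliary genes. The number of members called lower was 6 without scramble library 2 or 5 or knockdown library 2, and 8 without knockdown library 4, settings in which 3.45%, 3.69%, 3.83% and 5.16% of all genes tested were called lower. The number called higher was 0 without scramble library 2, 4 or 5 or knockdown library 2 or 3, 1 without knockdown library 4, 4 without scramble library 3 and 6 without knockdown library 1. The share of all genes called higher moved the same way: it was 0.896% to 2.17% in the fits with 0 or 1 member, 4.9% without scramble library 3 and 10.5% without knockdown library 1.

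Cell type markers moved as well. The 6 microglia markers summed to 241 to 317 CPM in the scramble libraries and 264 to 456 CPM in the knockdown libraries, and 3 of the 6 rose (Aif1, Csf1r and Tmem119). Single markers of other cells also passed the edgeR test: the interneuron gene Gad2 fell (log2 fold change -0.33, SE 0.0664), as did Pdgfra of oligodendrocyte precursors (-0.32, SE 0.0845), and Aldh1l1 of astrocytes (0.29, SE 0.0721) and Cldn5 of endothelium (0.40, SE 0.0951) rose. Each was the only gene of its list to pass, among 6 interneuron, 2 precursor, 6 astrocyte and 6 vascular markers. The medians of these lists were 0.057, -0.172, 0.172 and 0.013. With the length and GC correction neither these single markers nor the microglia markers passed. With the microglia score as a covariate edgeR called 0 members in either direction, with 12 lower and 7 higher at an unadjusted p under 0.05 (15.2% and 8.86%, against 10.5% and 10.1% of all genes; 8 of all genes were called, 0.0556%). The log2 fold changes in that fit were -0.87 (SE 0.26) for Kcna1, -0.91 (SE 0.322) for Kcnj6 and -0.36 (SE 0.121) for Kcnc1, no smaller than without the score. They were smaller for Kcng3 (-2.51, SE 0.537), Kcna3 (-1.09, SE 0.33), Kcnma1 (-0.33, SE 0.0948), Kcna2 (-0.27, SE 0.0911) and Kcnk9 (-0.14, SE 0.0856). Knockdown libraries 2, 3 and 4 had the highest microglia marker sums (374, 456 and 374 CPM). A fit without them left only knockdown libraries 1 and 5 against scramble, so it had less power. There edgeR called 0 of all 14705 genes tested (0.0%), and 15 members were lower and 4 higher at an unadjusted p under 0.05 (18.3% and 4.88%, against 10.2% and 7.45% of all genes). The score was built from the 6 microglia markers, 3 of which differed between the groups, so score and group overlap. Neither fit can separate the microglial signal from the group. The part of the microglial signal in the members' changes was not tested.

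**Figure D2:**
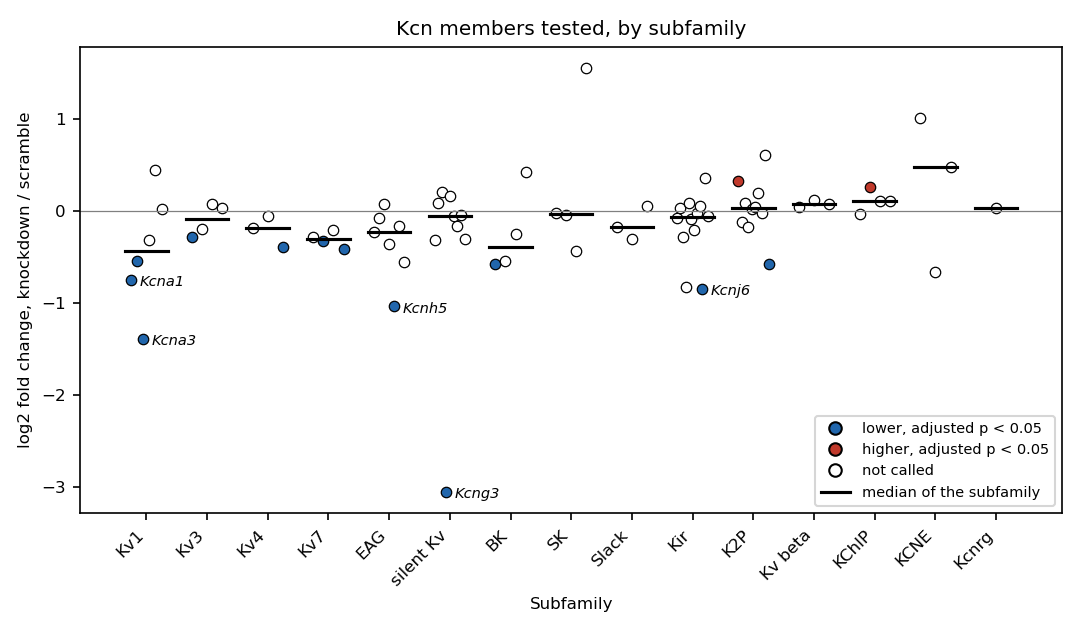
Log2 fold change of knockdown against scramble for 77 of the members tested, grouped by subfamily, with a bar at each subfamily's median. Blue points fell and red points rose in the edgeR test; Kcng3 at -3.05 lies far below all others, and the medians of Kv1 and BK lie lowest of those drawn.

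Kcng3 changed most. It encodes a silent Kv subunit, which yields no current alone and alters Kv2 channels when it joins them. The gene (ENSMUSG00000045053) lies on chromosome 17 from 83585957 to 83631895 on the minus strand. It stood at 3.83, 4.03, 3.45, 3.35 and 3.16 CPM in scramble libraries 1 to 5, against 1.09, 0.444, 0.0627, 0.233 and 0.302 CPM in the 5 knockdown libraries (1 to 5). The groups were far apart: the highest knockdown library, number 1, was at 30.6% of the scramble mean, and the lowest, number 3, at 1.76%. In counts these are 46 to 63 reads against 1 to 17, so single knockdown values are imprecise. Kcng3 met the count filter through the scramble libraries, where it is high. The mean fell from 3.56 ± 0.357 to 0.427 ± 0.396 CPM (SD, n = 5), a log2 fold change of -3.05 (SE 0.418, edgeR adjusted p = 0.00111). The length and GC correction left it at -3.12 (SE 0.417, edgeR adjusted p = 0.00479). It passed the test in each of the 10 fits that left out 1 library (log2 fold change -3.71 to -2.79). With knockdown libraries 1 and 5 alone against scramble it was -2.36 (SE 0.407, edgeR adjusted p = 0.0628).

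Of the 9 silent subunits tested 1 fell, Kcng3. The other 8 had log2 fold changes between -0.315 and 0.208, and 0 of them was called. Kcnf1, the most abundant of them per length, stood at 68.4 ± 6.52 CPM in the scramble and 55.0 ± 13.6 CPM in the knockdown libraries (-0.32, SE 0.143, edgeR adjusted p = 0.161). In Kcnf1 the library labelled knockdown 5, at 76.3 CPM, lay above 4 of the 5 scramble libraries.

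Kv1 channels open at low voltage and sit on axons and terminals, where they hold back repetitive firing. Of 6 Kv1 genes tested, 3 fell, 0 rose and the median log2 fold change was -0.44, or -0.17 with the length and GC correction. Kcna3 (ENSMUSG00000047959, chromosome 3, 107036169 to 107038070) stood at 6.46, 6.84, 6.30, 5.90 and 7.70 CPM in scramble libraries 1 to 5, against 4.56, 2.28, 1.69, 2.21 and 1.93 CPM in the 5 knockdown libraries (1 to 5). The groups did not overlap, and knockdown library 1 stood apart from the other knockdown libraries, nearer to scramble. Knockdown against scramble gave a log2 fold change of -1.39 (SE 0.238, edgeR adjusted p = 0.00357), and -1.58 (SE 0.258, edgeR adjusted p = 0.0137) with the length and GC correction. It was called in each of the 10 fits without 1 library.

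Kcna1 (ENSMUSG00000047976, chromosome 6, 126640397 to 126646384), the Kv1 subunit with the highest level per length, was nearly constant in the scramble libraries, at 103, 109, 106, 101 and 108 CPM. Under the knockdown shRNA its values were 89.3, 53.8, 71.9, 55.6 and 41.4 CPM (libraries 1 to 5). All 5 were below the lowest scramble library, with the library labelled knockdown 5 lowest. That library had the highest Mef2c level of its group and also the highest sum of cortical markers. On the log2 scale the change was -0.75 (SE 0.169, edgeR adjusted p = 0.0201) and the same after the correction (-0.75, SE 0.152, edgeR adjusted p = 0.0407). The call was lost without scramble library 2, scramble library 5 or knockdown library 2, where the highest adjusted p was 0.0581.

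Kcna2 (chromosome 3, 107101146 to 107115005), a usual partner of Kcna1 in axonal channels, fell from 237 ± 13.0 to 162 ± 28.0 CPM (SD, n = 5). Its knockdown libraries stood at 174, 138, 136, 158 and 203 CPM, all under the lowest scramble value of 221 CPM. The log2 fold change of -0.55 (SE 0.0991, edgeR adjusted p = 0.00495) shrank to -0.13 (SE 0.115, edgeR adjusted p = 0.606) with the length and GC correction. Its longest transcript has 11.6 kb, against 4.03 kb for Kcna1 and 1.90 kb for Kcna3. Kcna4, at -0.32 (SE 0.125), and Kcna6, at 0.02 (SE 0.083), did not pass. Kcna6 lies beside Kcna1 on chromosome 6, and its groups overlapped, with 49.2 to 58.2 CPM in scramble and 48.3 to 63.8 CPM in knockdown libraries.

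**Figure D3:**
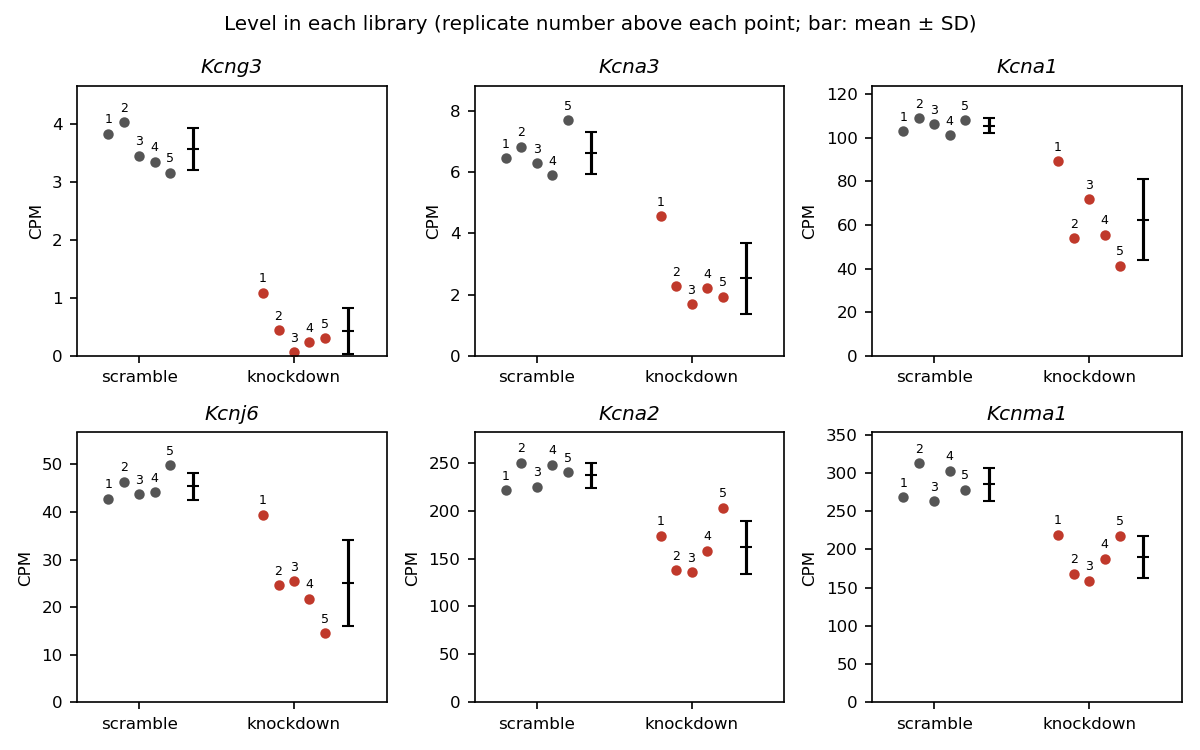
CPM in each library for Kcng3, Kcna3, Kcna1, Kcnj6, Kcna2 and Kcnma1, with replicate numbers at the points and mean ± SD beside them; each vertical axis starts at 0. In all 6 genes every knockdown library lies below every scramble library, and knockdown library 1 is the highest of its group in all but Kcna2.

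Kv7 subunits form the M-current, a slow brake on firing. Of 4 tested, Kcnq3 and Kcnq5 fell, 0 rose and all 4 log2 fold changes were negative. Kcnq3 (chromosome 15, 65986387 to 66286642) fell from 301 ± 24.3 to 239 ± 14.6 CPM with no overlap (log2 fold change -0.33, SE 0.0683, edgeR adjusted p = 0.00924). With the length and GC correction its sign turned (0.079, SE 0.0601, edgeR adjusted p = 0.544); its longest transcript has 11.8 kb. Kcnq5 fell from 101 ± 7.63 to 75.9 ± 13.0 CPM (-0.41, SE 0.100, edgeR adjusted p = 0.0206), although knockdown library 1, at 97.7 CPM, lay within the scramble range. It was lost without scramble library 2 or knockdown library 2 or 4 (highest adjusted p 0.0678), and stood at -0.17 (SE 0.0776) with the correction.

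Kv3 channels allow fast firing, and Kv4 channels carry the transient A-type current of dendrites. Of 4 Kv3 genes 1 fell. Kcnc1 was almost constant in scramble, at 248, 251, 249, 254 and 256 CPM, against 243, 219, 213, 190 and 168 CPM in the 5 knockdown libraries (1 to 5). The groups did not overlap, though knockdown library 1 lay close to the scramble values. The log2 fold change of -0.29 (SE 0.0824, edgeR adjusted p = 0.0395) was -0.10 (SE 0.0666) after the correction. The call of Kcnc1 held in 2 of the 10 fits without 1 library, those without knockdown library 1 or 5, and its highest adjusted p in the others was 0.0984. The replicate number as a block also ended it (edgeR adjusted p = 0.0537). Of 3 Kv4 genes, Kcnd3 fell from 102 ± 8.91 to 77.5 ± 11.8 CPM (-0.39, SE 0.0961, edgeR adjusted p = 0.0208) with knockdown library 1 inside the scramble range. It was lost without scramble library 2 or 5 or knockdown library 2 (highest adjusted p 0.0698) and was -0.15 (SE 0.0813) after the correction. Kcnd2, the leading Kv4 gene, stood at 161 ± 13.2 and 155 ± 16.3 CPM and did not pass (-0.06, SE 0.0797; 0.07 after the correction).

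The EAG channels, a Kv group that includes the ERG channels, had 1 of 7 genes lower. Kcnh5 stood at 3.03, 4.28, 6.03, 8.17 and 6.05 CPM in scramble libraries 1 to 5, against 2.89, 1.61, 2.07, 2.85 and 3.99 CPM in the 5 knockdown libraries (1 to 5). The groups overlapped, since knockdown library 5 lay above scramble library 1. The fitted log2 change was -1.04 (SE 0.282, edgeR adjusted p = 0.0317), and -1.01 (SE 0.284, edgeR adjusted p = 0.0883) with the length and GC correction. Kcnh5 was called in 3 of the 10 fits without 1 library, those without scramble library 1, knockdown library 1 or knockdown library 5 (highest adjusted p 0.0901). Kcnh3, the most abundant EAG gene, did not pass (0.08, SE 0.136). It stood at 128 to 137 CPM in 4 knockdown libraries and at 207 CPM in the library labelled knockdown 5, which also had the highest sum of cortical markers, 362 CPM against 161 to 284 CPM in the other 9.

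Kir channels include the GIRK subunits, which Gi-coupled receptors open to silence neurons. Of 12 Kir genes tested 1 fell and 0 rose. Kcnj6 (ENSMUSG00000043301, chromosome 16, 94748636 to 94997701), the GIRK2 gene, stood at 42.8, 46.4, 43.8, 44.2 and 49.8 CPM in scramble libraries 1 to 5, against 39.4, 24.6, 25.5, 21.8 and 14.6 CPM in the 5 knockdown libraries (1 to 5). All knockdown libraries were lower, with number 1 nearest to scramble and the library labelled knockdown 5 lowest. Knockdown against scramble gave a log2 fold change of -0.85 (SE 0.203, edgeR adjusted p = 0.0261). It was as large with the length and GC correction (-0.85, SE 0.193) but did not pass there (edgeR adjusted p = 0.0608). The call of Kcnj6 was lost without scramble library 2, 4 or 5 or knockdown library 2, 3 or 4 (highest adjusted p 0.0691). Antisense gene Gm41505 covers 4.98% of its exons, and without strand its reads cannot be told apart. The other GIRK genes of this tissue did not pass: Kcnj3 stood at 133 ± 13.5 and 130 ± 11.5 CPM (-0.03, SE 0.082) and Kcnj9 at 104 ± 11.0 and 99.5 ± 26.3 CPM (-0.06, SE 0.153). Kcnj4, the most abundant Kir gene per length, and Kcnj10, the potassium channel of astrocytes and oligodendrocytes, did not pass either (0.05, SE 0.11, and -0.075, SE 0.125).

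Among calcium- and sodium-activated channels, 1 of 11 genes fell. Kcnma1, the pore subunit of the BK channel, which ends action potentials in response to calcium, lies on chromosome 14 from 23289431 to 24014491. It stood at 268, 313, 263, 303 and 278 CPM in scramble libraries 1 to 5, against 219, 168, 159, 188 and 218 CPM in the 5 knockdown libraries (1 to 5). The groups did not overlap, and the gene was called in all 10 fits without 1 library (log2 fold change -0.58, SE 0.0931, edgeR adjusted p = 0.00226). With the length and GC correction it stood at -0.16 (SE 0.0883, edgeR adjusted p = 0.372); its longest transcript has 12.1 kb. A non-coding gene on the other strand covers 5.98% of its exons. The BK auxiliary subunits Kcnmb1, Kcnmb2 and Kcnmb4 did not pass. The SK channel Kcnn2, which shapes the afterhyperpolarization, stood at 53.3 ± 2.79 and 51.6 ± 4.85 CPM (-0.05, SE 0.073), and the sodium-activated Kcnt1 at 90.1 ± 7.50 and 79.9 ± 31.5 CPM (-0.17, SE 0.22), with the library labelled knockdown 5 far above the rest at 134 CPM. Kcnn4, a channel of microglia and other immune cells, stood at 0.437 ± 0.369 and 1.30 ± 0.617 CPM (1.55, SE 0.484, edgeR adjusted p = 0.0509) and did not pass. With 2 to 16 reads in scramble and 12 to 36 in knockdown libraries, Kcnn4 met the count filter through the knockdown libraries. Its highest value in both groups was in library number 3 (1.06 and 2.26 CPM), and these libraries also had the highest microglia marker sum of their group (317 and 456 CPM).

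K2P channels carry background current. Of 10 tested, Kcnk9 fell and Kcnk1 rose. Kcnk9, the acid-sensitive TASK-3 channel, stood at 127, 127, 108, 132 and 125 CPM in scramble libraries 1 to 5, against 91.7, 67.2, 61.5, 78.8 and 114 CPM in the 5 knockdown libraries (1 to 5). The library labelled knockdown 5 lay above scramble library 3, so the groups overlapped. The log2 fold change of Kcnk9 was -0.58 (SE 0.147, edgeR adjusted p = 0.0289), or -0.15 (SE 0.166) with the correction, and its longest transcript has 12.3 kb. It was called in 4 of the 10 fits without 1 library and lost without scramble library 1, 2, 4 or 5 or knockdown library 2 or 4 (highest adjusted p 0.0770). Kcnk1, the TWIK-1 channel, averaged 68.9 ± 8.16 CPM in scramble and rose to 86.4 ± 10.5 CPM. The fitted rise was 0.33 on the log2 scale (SE 0.0964, edgeR quasi-likelihood adjusted p = 0.0419). Its groups overlapped, since scramble library 1, at 80.2 CPM, exceeded knockdown library 1, at 69.6 CPM. It was 0.20 (SE 0.0961) with the correction and was called in 2 of the 10 fits without 1 library, those without scramble library 1 or knockdown library 1 (highest adjusted p 0.113). With the replicate block its edgeR adjusted p was 0.0953. An antisense gene covers 8.01% of its exons.

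Among auxiliary subunits 0 of 11 fell and 1 rose. Kcnip2 stood at 203, 177, 196, 164 and 191 CPM in scramble libraries 1 to 5, against 219, 232, 241, 203 and 221 CPM in the 5 knockdown libraries (1 to 5). The groups touched, with scramble library 1 and knockdown library 4 nearly equal but not crossing. On the log2 scale the change was 0.26 (SE 0.069, edgeR adjusted p = 0.0289), and 0.16 (SE 0.0643, edgeR adjusted p = 0.213) with the length and GC correction. The call of Kcnip2 was lost without scramble library 2, 4 or 5 or knockdown library 2 or 3 (highest adjusted p 0.0816). The other 3 KChIPs did not pass: Kcnip1 stood at -0.04 (SE 0.148), Kcnip3 at 0.105 (SE 0.128) and Kcnip4 at 0.107 (SE 0.108), and Kcnab2 stood at 809 ± 49.3 and 878 ± 58.9 CPM (0.12, SE 0.065, edgeR adjusted p = 0.239). Kcnrg, a cytosolic regulator of Kv channel assembly, was at 1.05 ± 0.119 and 1.08 ± 0.561 CPM.

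**Figure D4:**
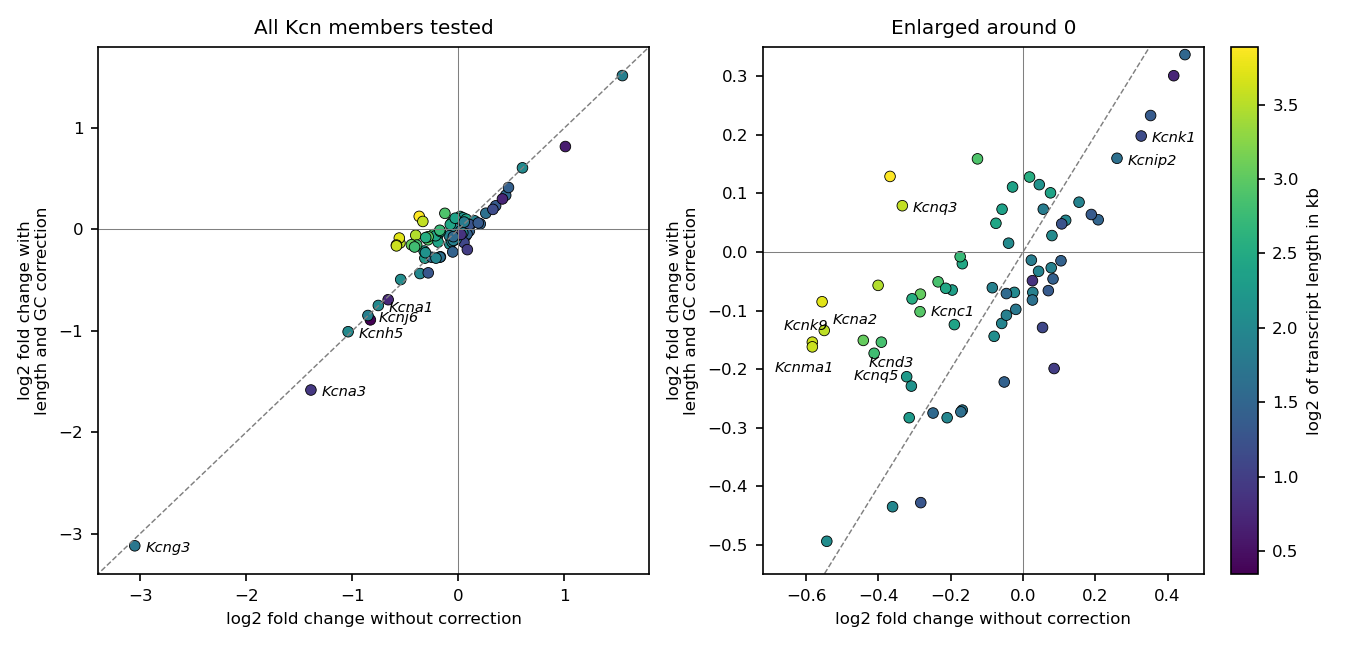
Log2 fold change of the 79 members without (horizontal) and with (vertical) the length and GC correction, whole range at left and enlarged at right, coloured by log2 transcript length, with most called members named. Kcng3, Kcna3, Kcnh5, Kcnj6 and Kcna1 stay near the dashed line of equal values, while the long transcripts Kcnma1, Kcna2, Kcnk9 and Kcnq3 move up towards 0 or past it.

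The 13 genes that fell did not rank the knockdown libraries alike. Knockdown library 1 was the least reduced in 9 of them, among them Kcng3, Kcna3, Kcna1 and Kcnj6. The library labelled knockdown 5 was the least reduced in the other 4, among them Kcna2, Kcnh5 and Kcnk9, but the most reduced in Kcna1, Kcnj6 and Kcnc1. In that library Kcna1 stood at 39.4% and Kcnj6 at 32.2% of the scramble mean, while Kcna2 stood at 85.7% and Kcnk9 at 91.9%. Knockdown library 5 was reduced in Kcng3 (8.48% of the scramble mean) and Kcna3 (29.1%) to levels within the range of knockdown libraries 2 to 4 (1.76% to 12.5% and 25.5% to 34.3%), while its Mef2c level of 286 CPM was below that of scramble library 4 alone. These libraries, knockdown 5 and scramble 4, had the highest sums of cortical markers (362 and 284 CPM). The part of cortical tissue in their Mef2c levels was not tested.

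Kcne2 and Kcnj13, channel genes of the choroid plexus epithelium, varied with the markers of that tissue. Kcne2 stood at 10.2, 1.02, 0.597, 13.5 and 9.01 CPM in scramble libraries 1 to 5, against 19.1, 0.278, 0.125, 0.291 and 2.11 CPM in the 5 knockdown libraries (1 to 5). The sum of 5 choroid plexus and ependymal markers (Ttr, Folr1, Clic6, Kl, Foxj1) was 674 to 2746 CPM in 3 scramble and 2 knockdown libraries, and 58.3 to 102 CPM in the other 5. Where the sum was high, Ttr made up most of it (1541 of 1732 CPM in scramble library 1). The ependymal marker Foxj1 did not follow the sum, with 16.4 CPM in scramble library 3 (sum 83.7) and 8.39 CPM in knockdown library 5 (sum 674). Kcne2 was 2.11 to 19.1 CPM in the first 5 and 0.125 to 1.02 CPM in the other 5, and Kcnj13 was 1.75 to 11.6 and 0 to 0.703 CPM. The limit between these sets was chosen after the values were seen. Between the groups neither gene passed the edgeR test (log2 fold change -0.66, SE 1.35, and -0.829, SE 1.35).

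**Figure D5:**
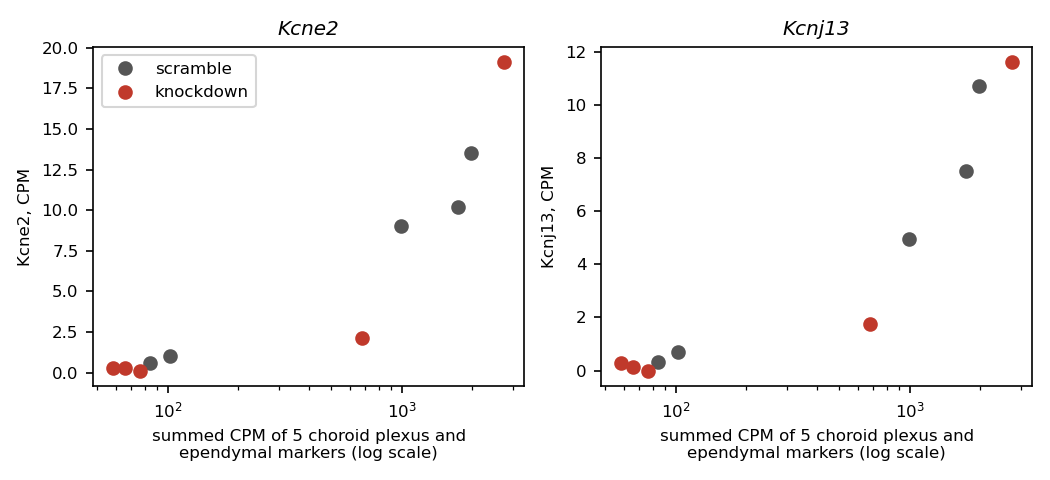
CPM of Kcne2 (left) and Kcnj13 (right) in each of the 10 libraries against the summed CPM of 5 choroid plexus and ependymal markers on a log axis, coloured by group. The 5 libraries with a marker sum of 102 or less have almost none of either transcript, in both groups, and the 5 with 674 or more have at least 1.75 CPM.

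Channel proteins are held in place by partners without a Kcn symbol. Of 34 tested genes in a list of such partners, 7 fell and 0 rose (20.6% lower, against 7.61% of all genes), and the median log2 fold change was -0.062. Ank3, the ankyrin that anchors Kv7 and sodium channels at the axon initial segment, fell from 571 ± 35.9 to 378 ± 47.6 CPM (-0.59, SE 0.082, edgeR adjusted p = 0.00113). Kctd16, a subunit of the GABA-B receptor complex that signals to GIRK channels, fell from 9.56 ± 0.769 to 5.06 ± 1.17 CPM (-0.92, SE 0.158, edgeR adjusted p = 0.00376). The Kv1-associated genes Adam22 (-0.31, SE 0.0644), Adam23 (-0.22, SE 0.0628), Cntnap2 (-0.36, SE 0.0776) and Dlg2 (-0.32, SE 0.0672) also fell, as did Ank2 (-0.50, SE 0.0838). All 7 had groups that did not overlap (20.6% of the 34), where 6.04% of all genes lay wholly lower without overlap. With the length and GC correction Kctd16 (-0.95, SE 0.156, edgeR adjusted p = 0.0138) and Ank3 (-0.24, SE 0.0454, edgeR adjusted p = 0.0219) stayed lower, and the scaffold gene Dlg4 was called higher (0.25 from 0.037, edgeR adjusted p = 0.0269). Ank2, Adam22, Adam23, Cntnap2 and Dlg2, with transcripts of 6.43 to 14.3 kb, then lay between -0.062 and 0.031. The Kv4 partners Dpp6 and Dpp10 and the GABA-B receptor genes Gabbr1 and Gabbr2 did not pass in either fit. Adam23 was lost in 8 of the 10 fits without 1 library, all but those without knockdown library 1 or 3 (highest adjusted p 0.0999), and with the replicate block (edgeR adjusted p = 0.0686). The number of partners called was 11 without knockdown library 1, where 22.8% of all genes were called.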

How the data were processed

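RNA was measured in 10 CA3 libraries, 5 per group. Per the labels' protocols, polyadenylated RNA was read from both ends on an Illumina HiSeq. Per the submitters' processing notes, HISAT2, featureCounts and mm10 were used; their versions, the strand setting and the annotation are not given here. Each deposited table holds whole-number counts for genes, unnormalized, and 18421 of 18453 identifiers matched GENCODE M21 (GRCm38, the assembly of mm10). Groups and replicate numbers came from the titles. No library duplicated another (chi-square per degree of freedom 3.74 to 37.4 within groups).

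The test was edgeR 4.0.16 (R 4.3.3) with filterByExpr, TMM, a robust quasi-likelihood fit, Benjamini-Hochberg adjustment over 14393 genes, calls at adjusted p under 0.05. The standard error is the log2 fold change divided by the square root of F. CPM use TMM-scaled library sizes. The correction fits natural splines (5 degrees of freedom) of log2 longest transcript length and GC content to each library's deviations of log2 CPM (prior count 2) and uses them as offsets. Mef2c was also tested by permutation on log2 of CPM plus 1. The pipeline was tested on simulated data. Alternatives were 2 normalizations, 2 filters, DESeq2 1.42.0, limma 3.58.1 voom, the replicate number as a block, the correction, marker scores as covariates and fewer libraries. The members, lists, alternatives and naming rule were chosen with earlier results of these data known. The rule names called members, the leader of each subfamily per length and called partners, of which some are not reported here; Kcna4, Kcna6, Kcnip1, Kcnip3, Kcnip4, Kcnj3, Kcnj9, Kcnj10, Kcnj13, Kcnn4, the BK auxiliary subunits, Dlg4, single marker genes and genes listed without values were named after their values were seen. The library depth of 14701928 to 17798090 counts leaves counting error small for all but the lowest members.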

Additional observations from a re-analysis of the deposited data

Results flagged for a closer look

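In groups of 5 libraries, a library was marked when its gap to the nearest other exceeded 0.71 of the group's range; 6 were marked in 68 groups checked, and chance alone marks about 1 in 20. Mef2c stood at 312 CPM in scramble library 4, above the other scramble libraries. Kcna3 stood at 4.56 CPM in knockdown library 1, above the other knockdown libraries and below all scramble libraries. Kcne2 stood at 19.1 CPM in knockdown library 1, the library with the highest choroid plexus marker sum (2746 CPM). Kcnh3 stood at 207 CPM and Kcnt1 at 134 CPM in the library labelled knockdown 5, the one with the highest cortical marker sum. Kcnk9 stood at 108 CPM in scramble library 3, the lowest of its group.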

How the results depend on the processing

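Of the comparisons between settings, 611 kept direction and side of the threshold, 141 lost the call, 9 gained it and 31 turned sign; the cause was not tested. The 13 members called lower became 20 with limma-voom, 3 with the length and GC correction, 3 with that correction and the replicate block, 0 with the microglia score and 0 without knockdown libraries 2, 3 and 4 (6 to 18 when 1 library was left out). The 2 called higher became 4 with DESeq2, 5 with limma-voom, 0 with the correction, 0 with correction and block, 5 with the cortical score, 0 with the microglia score, 1 with the oligodendrocyte score, 1 without scramble library 4 and knockdown library 5, and 0 without knockdown libraries 2, 3 and 4 (0 to 6 when 1 library was left out). The 7 partners called became 3 with the correction: Kctd16 and Ank3 of the 7, and Dlg4, which was called higher. With correction and block 2 were called, of the 7 only Kctd16. The number was 0 with the microglia score and 0 without knockdown libraries 2, 3 and 4 (6 to 11 when 1 was left out). The members' median of -0.075 became -0.157 with limma-voom and 0.007 without knockdown libraries 2, 3 and 4 (-0.141 to -0.052 when 1 was left out). Mef2c, at -0.34, was -0.346 (edgeR adjusted p = 0.00769) with the cortical score, 0.162 with the microglia score and -0.446 (edgeR adjusted p = 0.0274) without scramble library 4 and knockdown library 5 (-0.642 to -0.139 when 1 was left out). With the correction Mef2c was -0.107 (edgeR adjusted p = 0.909). Shares over all genes moved too: 7.61% were called lower and 4.66% higher, against 12.6% and 11.0% with limma-voom, 9.84% and 8.27% with DESeq2, 0.959% and 0.695% with the correction, and 10.8% and 7.96% with the cortical score. They were 0.674% and 0.764% with correction and block, and 6.61% and 3.32% with the oligodendrocyte score. Without scramble library 4 and knockdown library 5 they were 4.96% and 2.17%. With the microglia score they were 0.0556% and 0.0%, and without knockdown libraries 2, 3 and 4 both were 0.0%. When 1 library was left out they ran from 3.45% to 12.2% lower and from 0.896% to 10.5% higher. The fit with 18 members lower, without knockdown library 5, had 7.21% lower. With the replicate number as a block, 14 members were lower and 3 higher (5.84% and 3.28% of all genes), and the calls of Kcnc1, Kcnk1 and Adam23 were lost. Same-numbered libraries correlated at 0.239, 0.185, 0.403, -0.114 and 0.0795 for numbers 1 to 5, so the numbers were not taken as pairs.

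Single genes that turned sign did so as follows (log2 fold changes). With the correction Kcnd2 was 0.073, Kcnh3 -0.027, Kcnj4 -0.129, Kcnq3 0.079, Kcnrg -0.049, Adam22 0.031 and Cntnap2 0.004. With correction and block Kcnd2 was 0.071, Kcnh3 -0.043, Kcnj4 -0.132, Kcnq3 0.076, Kcnrg -0.149 and Adam22 0.023. With the microglia score Kcne2 was 3.048, Kcnf1 0.024, Kcnn2 0.060 and Kcnt1 0.254. Without knockdown libraries 2, 3 and 4 Kcne2 was 0.620, Kcnn2 0.031 and Kcnt1 0.134. With limma-voom Kcnh3 was -0.034 and Kcnrg -0.394, with the block alone Kcnrg was -0.060, and without scramble library 4 and knockdown library 5 Kcnh3 was -0.011. When 1 library was left out, Kcnh3 ranged from -0.075 to 0.147, Kcnj4 from -0.034 to 0.116 and Kcnrg from -0.281 to 0.247. Depth limits the low members most: Kcng3 rests on 1 to 17 reads in the knockdown libraries.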
